A study of Danio rerio with 31 samples.

Results

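crp3 (ENSDARG00000042613), of the zebrafish C-reactive protein family, and mfap4.7 (ENSDARG00000092806), of the microfibril-associated protein 4 family, were followed across the populations, brain regions and sexes of a zebrafish brain microarray study. They are 2 of the 15648 genes measured, and both were chosen by their log2 values on these arrays, which were higher in wild than in domesticated fish. That difference is therefore given below as a description, without a test. The other measured genes of the same families were crp1, crp2, crp5, crp7 and 1 gene listed as MFAP4 (ENSDARG00000090557).

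The study set wild zebrafish of the Nadia and Pargana North populations (the second also called Pargana in the labels, as it is here) against domesticated fish of the Scientific Hatchery and Transgenic Mosaic 1 populations. Telencephalon and midbrain were taken from individual, sexually mature fish aged 1 year, all with the treatment label control, and each RNA sample went onto its own 1-colour NimbleGen array. Each population had 4 arrays per region, except Scientific Hatchery telencephalon with 3, which gave 15 telencephalon and 16 midbrain arrays. Every group had 2 males and 2 females, except Scientific Hatchery, which had 1 male and 2 females in telencephalon and 1 male and 3 females in midbrain. The sources used here do not say how many generations each population had spent in captivity, or what the transgene of Transgenic Mosaic 1 is. Because the RNA came from whole pieces of tissue, fewer cells of a type and less RNA per cell cannot be told apart.

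C-reactive proteins are pentraxins, soluble pattern recognition proteins that bind phosphocholine on microbes and damaged cells and can start complement. In mammals the liver makes C-reactive protein during the acute-phase response, driven by interleukin 6 through STAT3 and C/EBP factors. MFAP4 is a secreted protein with a fibrinogen-related domain that binds elastic fibres in mammals, and in zebrafish a promoter of this family is widely used to label macrophages. Both families have several copies in the zebrafish genome: of 6 crp genes in the name table used here 5 had a row of values, and of 15 mfap4 genes 2 had one. Whether the probes of one copy also bind transcripts of a close copy was not tested.

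The tissue labels fitted the regional marker genes. Of 14 telencephalon markers 12 were higher and 1 was lower in telencephalon than in midbrain, and of 13 midbrain markers all 13 were lower in telencephalon, in a comparison in which 43.6% of all genes (21.6% higher, 22.1% lower in telencephalon) passed at an adjusted p under 0.05 (limma, Benjamini-Hochberg over all genes). The deposited values are log2 values, with array medians between 9.57 and 9.74 and a 10th percentile between 4.92 and 5.17. The number of arrays limits the precision. The labels name an array by T (telencephalon) or M (midbrain) and a number. Arrays with the same number (Nadia T7 and M7, for example) deviated together from their population means in each of 15 pairs. In 13 of the 15 the telencephalon array correlated best with the midbrain array of its own number, among those of its population. A number was therefore taken to link its arrays, although the link was weaker in some pairs and no label states that it marks 1 fish.

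A few arrays stood apart. Pargana T21 and M21 are labelled female, but T21 lay nearer the male than the female mean in 4 of the 5 genes called between the sexes in telencephalon, and M21 did so in all 5. Pargana M140, labelled male, lay nearer the male mean in 2 of the 5. Pargana 140 correlated least with the mean of the other arrays in both regions (r = 0.971 in telencephalon and 0.982 in midbrain). Its neutrophil markers averaged 8.27 in telencephalon, against 7.22 to 7.85 on the other telencephalon arrays, and 9.30 in midbrain, against 7.24 to 7.80 on the others. In midbrain it held the highest value of 10 of 13 neutrophil markers and of 14 of 23 microglia and macrophage markers. Some of the crp3 and mfap4.7 differences below are also given without both arrays of Pargana 21 or of Pargana 140.

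crp3 was high in both wild populations and lower in both domesticated ones, in both regions. In telencephalon its log2 values were 8.74, 9.67, 8.66 and 9.16 in Nadia T7, T98, T106 and T130, and 9.97, 9.68, 7.83 and 8.96 in Pargana T13, T21, T85 and T140. The domesticated telencephalon arrays gave 8.10, 5.96 and 6.16 in Scientific Hatchery T47, T57 and T123, and 6.85, 6.55, 5.04 and 7.18 in Transgenic Mosaic 1 T12, T63, T99 and T109. Scientific Hatchery T47 stood above the other domesticated arrays and above Pargana T85, the lowest wild array, so the groups overlapped by this 1 array on each side.

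In midbrain crp3 had log2 values of 8.78, 8.98, 9.56 and 8.61 in Nadia M7, M98, M106 and M130, and 9.60, 8.96, 7.75 and 9.72 in Pargana M13, M21, M85 and M140. The domesticated midbrain arrays gave 7.69, 6.29, 4.89 and 6.03 in Scientific Hatchery M47, M57, M119 and M123, and 6.30, 6.83, 5.62 and 6.75 in Transgenic Mosaic 1 M12, M63, M99 and M109. Here the lowest wild array, Pargana M85, lay just above the highest domesticated one, Scientific Hatchery M47, and the groups did not overlap in log2 value. By percentile within the array the order was reversed, at 30.1 for Pargana M85 and 30.5 for Scientific Hatchery M47. Complete separation with wild fish higher was seen for 0.0575% of genes in midbrain and 0.128% in telencephalon. The numbers 85 and 47 were the extremes of their groups in both regions.

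The crp3 mean was 9.08 ± 0.69 in wild and 6.55 ± 0.97 in domesticated telencephalon (SD, n = 8 and 7), a difference of 2.54 log2 units or 5.80-fold. In midbrain it was 8.99 ± 0.65 in wild and 6.30 ± 0.84 in domesticated fish (SD, n = 8 each), a difference of 2.70 or 6.48-fold. In the fit with a sex term the differences were 2.59 in telencephalon and 2.70 in midbrain, and without both arrays of Pargana 140 they were 2.54 and 2.585. Without both arrays of Pargana 21 they were 2.56 and 2.72. The spread within a population was wide for a log2 scale, with SDs from 0.41 in Nadia midbrain to 1.18 in Scientific Hatchery telencephalon.

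**Figure D1:**
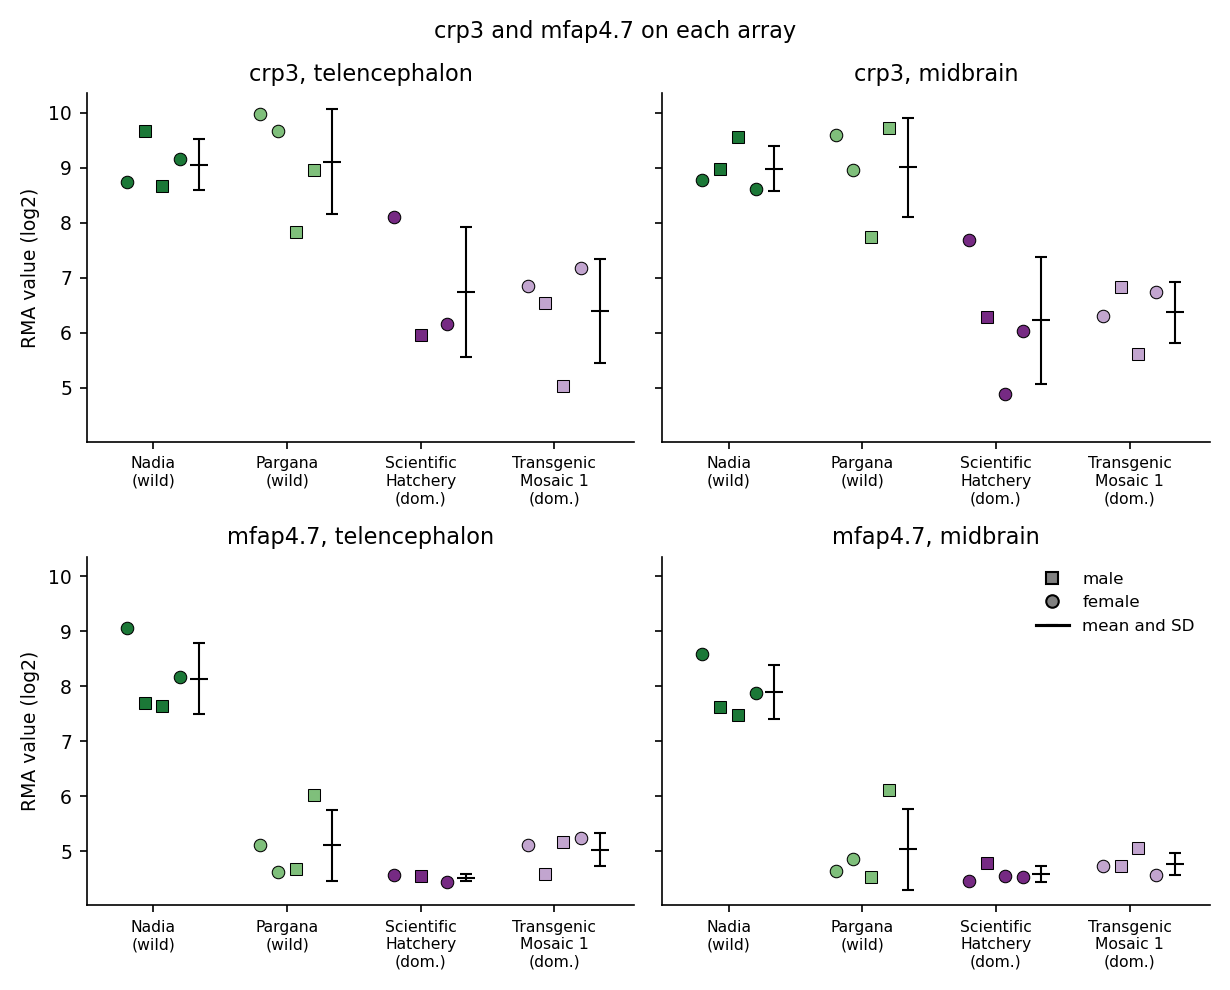
Values of crp3 (top) and mfap4.7 (bottom) on each array, by population, in telencephalon (left) and midbrain (right). Points are arrays (squares male, circles female) on the deposited log2 scale, and the bar beside each group is its mean and SD (n = 4, or 3 for Scientific Hatchery telencephalon). crp3 is higher in both wild populations, mfap4.7 in Nadia alone, between 7.47 and 9.05.

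mfap4.7 had another pattern: it was higher in Nadia and near the bottom of the measured range in the other 3 populations, Pargana included. Even in Nadia it stayed below the array medians, reaching the 43.9th percentile at most. In telencephalon its log2 values were 9.05, 7.70, 7.64 and 8.16 in Nadia T7, T98, T106 and T130, and 5.12, 4.63, 4.67 and 6.02 in Pargana T13, T21, T85 and T140. The domesticated telencephalon arrays gave 4.58, 4.55 and 4.44 in Scientific Hatchery T47, T57 and T123, and 5.12, 4.59, 5.16 and 5.24 in Transgenic Mosaic 1 T12, T63, T99 and T109. The Nadia arrays all stood above all others, and Pargana T140 alone of the other wild arrays stood above the domesticated ones.

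In midbrain mfap4.7 had log2 values of 8.59, 7.63, 7.47 and 7.87 in Nadia M7, M98, M106 and M130, and 4.64, 4.85, 4.53 and 6.11 in Pargana M13, M21, M85 and M140. The domesticated midbrain arrays gave 4.45, 4.79, 4.55 and 4.53 in Scientific Hatchery M47, M57, M119 and M123, and 4.73, 4.73, 5.05 and 4.57 in Transgenic Mosaic 1 M12, M63, M99 and M109. Again Nadia was apart, Pargana M140 was intermediate, and the other Pargana arrays lay among the domesticated ones. All Nadia arrays were above those of the other 3 populations for 0.32% of genes in telencephalon and 0.479% in midbrain.

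Over wild and domesticated fish mfap4.7 averaged 6.63 ± 1.73 and 4.81 ± 0.35 in telencephalon (SD, n = 8 and 7), and 6.46 ± 1.63 and 4.68 ± 0.19 in midbrain (SD, n = 8 each). The fitted difference between wild and domesticated fish was 1.87 log2 units in telencephalon and 1.775 in midbrain. Without Nadia it was 0.33 in telencephalon and 0.31 in midbrain, and without Pargana it was 3.40 and 3.23. Without the arrays of Pargana 140 alone it was 1.70 and 1.61. Outside Nadia 18 of 23 values were under their array's 10th percentile, and the table used here carries no detection call, so folds against these groups may be understated.

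The gap between Nadia and Pargana in mfap4.7 is also given without a test, since mfap4.7 met the choice for higher values in wild fish through its Nadia arrays. Nadia averaged 8.14 ± 0.65 against 5.11 ± 0.64 in Pargana in telencephalon (SD, n = 4 each), an 8.17-fold difference. In midbrain Nadia averaged 7.89 ± 0.50 against 5.03 ± 0.73 in Pargana (SD, n = 4 each), which is 7.26-fold. The lowest Nadia array was above the highest Pargana array in both regions. The share of all genes with this separation of Nadia from Pargana alone was not computed. The fitted mfap4.7 difference was 3.03 in telencephalon and 2.86 in midbrain. It was 3.40 and 3.24 without the arrays of Pargana 140, and 2.82 and 2.81 without those of Pargana 21.

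crp3 did not pass between Nadia and Pargana. The fitted difference was -0.05 in telencephalon (95% interval -1.17 to 1.06, limma adjusted p = 0.98) and -0.02 in midbrain (-1.14 to 1.09, limma adjusted p = 0.99). Of all genes 2.08% passed between Nadia and Pargana in telencephalon and 1.41% in midbrain. The intervals leave room for a difference of about 1 log2 unit in either direction. With the sex label of Pargana 21 turned to male, an alternative chosen after seeing the data, the telencephalon value was -0.25 (limma adjusted p = 0.90), and without both arrays of Pargana 21 it was -0.01. Without both arrays of Pargana 140 the difference was 0.05 in telencephalon (limma adjusted p = 0.99) and 0.25 in midbrain (limma adjusted p = 0.92).

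Between the domesticated populations neither gene passed. For crp3, Scientific Hatchery minus Transgenic Mosaic 1 was 0.19 in telencephalon (95% interval -1.03 to 1.40, limma adjusted p = 0.92) and -0.16 in midbrain (-1.30 to 0.97, limma adjusted p = 0.98). For mfap4.7 it was -0.54 in telencephalon (-1.29 to 0.21, limma adjusted p = 0.52) and -0.17 in midbrain (-0.87 to 0.53, limma adjusted p = 0.97). In this comparison 1.62% of genes passed in telencephalon and 0.939% in midbrain.

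Placed in order of level, crp3 was highest in the wild populations, at 9.06 ± 0.46 in Nadia and 9.11 ± 0.95 in Pargana in telencephalon, followed by 6.74 ± 1.18 in Scientific Hatchery and 6.40 ± 0.95 in Transgenic Mosaic 1 (SD). In midbrain Nadia had 8.98 ± 0.41 and Pargana 9.01 ± 0.90, followed by Scientific Hatchery with 6.22 ± 1.15 and Transgenic Mosaic 1 with 6.37 ± 0.55 (SD). Nadia and Pargana differed by less than the SD of either, as did the domesticated populations, whose order changed between the regions. For mfap4.7 the order of the means below Nadia was Pargana, Transgenic Mosaic 1 and Scientific Hatchery in both regions. In telencephalon Scientific Hatchery was at 4.52 ± 0.07 and Transgenic Mosaic 1 at 5.03 ± 0.30 (SD). In midbrain Scientific Hatchery was at 4.58 ± 0.14 and Transgenic Mosaic 1 at 4.77 ± 0.20 (SD). Pargana and Transgenic Mosaic 1 differed by less than the SD of Pargana in both regions, and the domesticated populations did not pass as different in the test above. The place of Pargana above Transgenic Mosaic 1 rested on number 140, at 6.02 in telencephalon and 6.11 in midbrain. The other Pargana arrays ran from 4.63 to 5.12 and from 4.53 to 4.85. Those of Transgenic Mosaic 1 ran from 4.59 to 5.24 and from 4.57 to 5.05.

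Neither gene passed between the brain regions, where 43.6% of all genes did. crp3 differed by 0.15 between telencephalon and midbrain (95% interval -0.43 to 0.72, limma adjusted p = 0.71) and mfap4.7 by 0.12 (-0.24 to 0.47, limma adjusted p = 0.63). This fit treated arrays that share a number as independent. Neither gene passed with the number as a random or a fixed block. Within the pairs of arrays that share a number, crp3 was higher in telencephalon in 9 of 15, with differences from -0.90 to 0.72 and a median of 0.13. mfap4.7 was higher in telencephalon in 10 of 15 pairs, with differences from -0.24 to 0.67 and a median of 0.12. The gap between wild and domesticated fish is compared between the regions as a description only, since both genes were chosen for that gap on these arrays. Telencephalon minus midbrain of the gap was -0.12 for crp3 (-1.26 to 1.03) and 0.09 for mfap4.7 (-0.61 to 0.80), in a comparison that called 0.0192% of genes. Because of the choice, these values cannot show whether the gap is alike in the regions.

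Arrays that share a number were set against each other within their populations. After the population means were removed, telencephalon and midbrain values of crp3 correlated across the 15 pairs at r = 0.75 (exact permutation within populations, two-sided p = 0.018) and rho = 0.73 (exact permutation p = 0.018). For mfap4.7 r was 0.85 (exact permutation p = 0.017) and rho was 0.68 (exact permutation p = 0.035). Without the 2 pairs farthest from the median, r was 0.56 for crp3 (Transgenic Mosaic 1 99 and Pargana 85 left out) and 0.52 for mfap4.7 (Nadia 7 and Pargana 140 left out), so part of each relation rests on these pairs. The relation was computed for 7 genes of the families, and over these 7 neither gene's r passed (adjusted p = 0.063 each, exact permutation). Over all genes the median r was 0.25, with crp3 at the 93.9th percentile and mfap4.7 at the 97.8th.

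**Figure D2:**
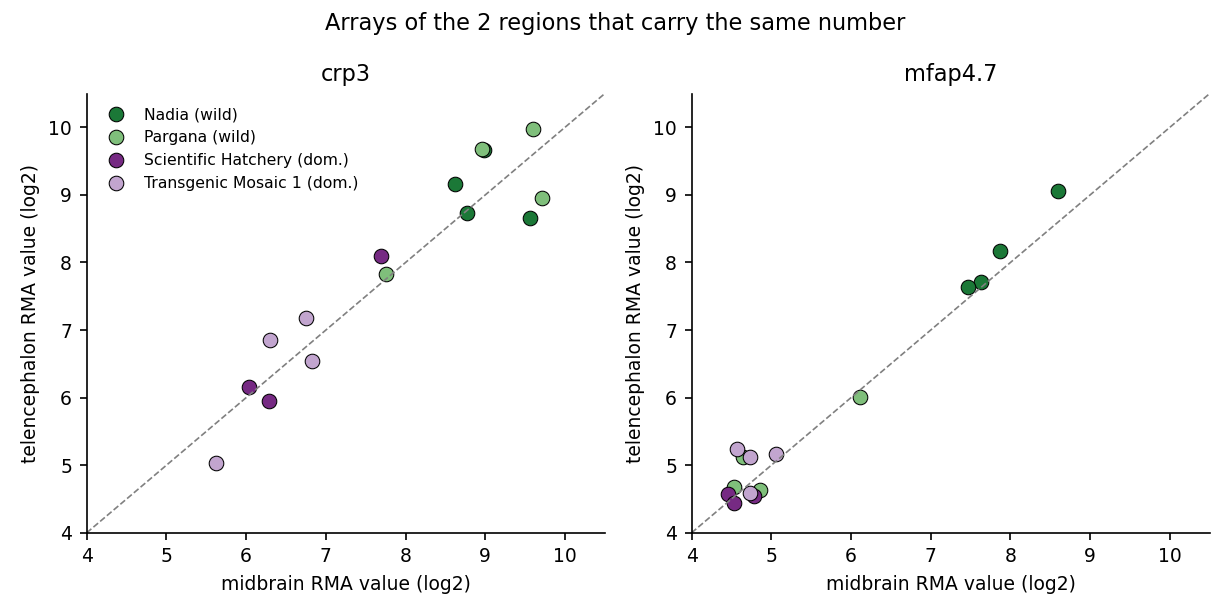
Telencephalon value (vertical axis) against midbrain value (horizontal axis), both on the deposited log2 scale, for the 15 pairs of arrays that share a number, for crp3 (left) and mfap4.7 (right). Points are coloured by population and the dashed line marks equal values; the pairs lie along it, with Pargana 140 the 1 mfap4.7 pair near 6 on both axes.

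Within populations the deviations of the 2 genes from the population means correlated at -0.03 over 15 telencephalon arrays and 0.08 over 16 midbrain arrays, as a description. Pargana 140, highest of its population in mfap4.7 in both regions, was below Pargana T13 and T21 in crp3 in telencephalon and the highest Pargana array in midbrain. It also had the highest neutrophil marker level and the highest red blood cell gene level in both regions. Its liver and plasma gene level was the highest in telencephalon, and its microglia and macrophage marker level the highest in midbrain. Its lymphocyte marker level was the highest in neither region. The part of any of these levels in its mfap4.7 values was not tested. Nadia, where mfap4.7 was highest, had neutrophil marker levels of 7.22 to 7.53 in telencephalon and 7.40 to 7.57 in midbrain, against 7.24 to 7.85 and 7.49 to 7.80 on the domesticated arrays. Its microglia and macrophage marker levels were 8.66 to 8.85 in telencephalon and 9.01 to 9.35 in midbrain. Those of the domesticated arrays were 8.67 to 9.41 and 8.97 to 9.22. The part of either marker level in the Nadia mfap4.7 values was not tested.

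Sex did not pass for either gene. crp3 in telencephalon was lower in males than in females by a fitted -0.88 (SE 0.40, 95% interval -1.70 to -0.05, limma adjusted p = 0.44), in a comparison in which 5 genes, 0.032% of all, passed. Males and females averaged 8.78 and 9.39 in wild telencephalon and 5.85 and 7.07 in domesticated telencephalon. In midbrain the fitted crp3 difference was -0.05 (limma adjusted p = 0.9993), and 0.00639% of genes passed. For mfap4.7 male minus female was -0.20 in telencephalon (limma adjusted p = 0.79) and 0.09 in midbrain (limma adjusted p = 0.9993). With Pargana 21 counted as male, the crp3 telencephalon difference was -0.77 (limma adjusted p = 0.59), and without both of its arrays it was -0.85 (limma adjusted p = 0.53). Without both arrays of Pargana 140, male minus female in telencephalon was -0.93 for crp3 (limma adjusted p = 0.45) and -0.40 for mfap4.7 (limma adjusted p = 0.43). In midbrain it was then -0.20 for crp3 and -0.11 for mfap4.7.

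No relative passed between wild and domesticated fish. None of the 4 other crp genes and MFAP4 did so, 0 of 5 in each region, where 1.91% of all genes passed in telencephalon and 0.786% in midbrain (0.831% higher and 1.08% lower in wild telencephalon; limma; 0 of 5 in telencephalon and 1 in midbrain had an unadjusted p under 0.05). Their differences ran from -0.345 to 0.41 in telencephalon and from -0.19 to 0.68 in midbrain. crp2 and crp5 stayed between 4.22 and 6.80 on every array, low in the measured range. crp7 (4.53 to 7.26) and MFAP4 (4.41 to 7.22) were low too, reaching at most the 26.8th and 27.8th percentile of an array.

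crp1 was the relative with the largest difference between the brain regions. It was lower in telencephalon than in midbrain by -3.31 log2 units (SE 0.16, limma adjusted p = 8.44e-15), in 15 of 15 pairs. It averaged 8.74 ± 0.54 in telencephalon (n = 15) and 12.05 ± 0.33 in midbrain (n = 16; SD). Between wild and domesticated fish it differed by -0.07 in telencephalon and -0.08 in midbrain, and neither value passed. crp7 did not pass between the regions, at -0.23 (limma adjusted p = 0.40), or at -0.26 with the array number as a random block (limma adjusted p = 0.26). Within the 15 pairs, a fixed block that leaves out the unpaired Scientific Hatchery M119, it was lower in telencephalon by -0.34 (limma adjusted p = 0.035).

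crp7 differed between the domesticated populations in telencephalon. Its values were 6.88, 6.10 and 7.26 in Scientific Hatchery T47, T57 and T123, against 4.53, 4.94, 4.96 and 4.83 in Transgenic Mosaic 1 T12, T63, T99 and T109. The groups did not overlap, as was so in this direction for 6.92% of genes, and crp7 was higher in Scientific Hatchery by 1.996 (SE 0.45, limma adjusted p = 0.020). The call was lost without a sex term and with telencephalon fitted alone (adjusted p = 0.058 each), and without Scientific Hatchery T47 (0.064), Scientific Hatchery T123 (0.13) or Transgenic Mosaic 1 T12 (0.054). In midbrain the difference was 0.95 (SE 0.42, limma adjusted p = 0.43), with 1 low Scientific Hatchery array at 4.59 and the other 3 at 6.26 to 7.13.

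MFAP4, the other measured mfap4 gene, had its highest midbrain values in Nadia, as mfap4.7 did. In midbrain it had values of 6.48, 6.09, 6.29 and 5.41 in Nadia M7, M98, M106 and M130, against 4.89, 4.51, 4.71 and 5.25 in Pargana M13, M21, M85 and M140. The domesticated midbrain arrays lay between 4.41 and 5.20. All 4 Nadia arrays thus stood above every other midbrain array, as was so for 0.479% of genes. In telencephalon Nadia overlapped with the rest. There Transgenic Mosaic 1 T99 stood above every Nadia array, and Pargana T21, at 6.10, stood above Nadia T98 and T130. The difference between Nadia and Pargana was 1.23 in midbrain (SE 0.39, limma adjusted p = 0.12) and 0.95 in telencephalon (SE 0.39, limma adjusted p = 0.24), neither of which passed. With midbrain fitted alone the midbrain value passed (adjusted p = 0.017), as it did with array weights (0.043) and without Transgenic Mosaic 1 T99 (0.023), the highest MFAP4 array in telencephalon at 7.22. Between the regions MFAP4 was at 0.44 (limma adjusted p = 0.082), and with the array number as a random block it was higher in telencephalon by 0.43 (limma adjusted p = 0.044). Without Transgenic Mosaic 1 T63 the region difference was 0.55 (adjusted p = 0.016).

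**Figure D3:**
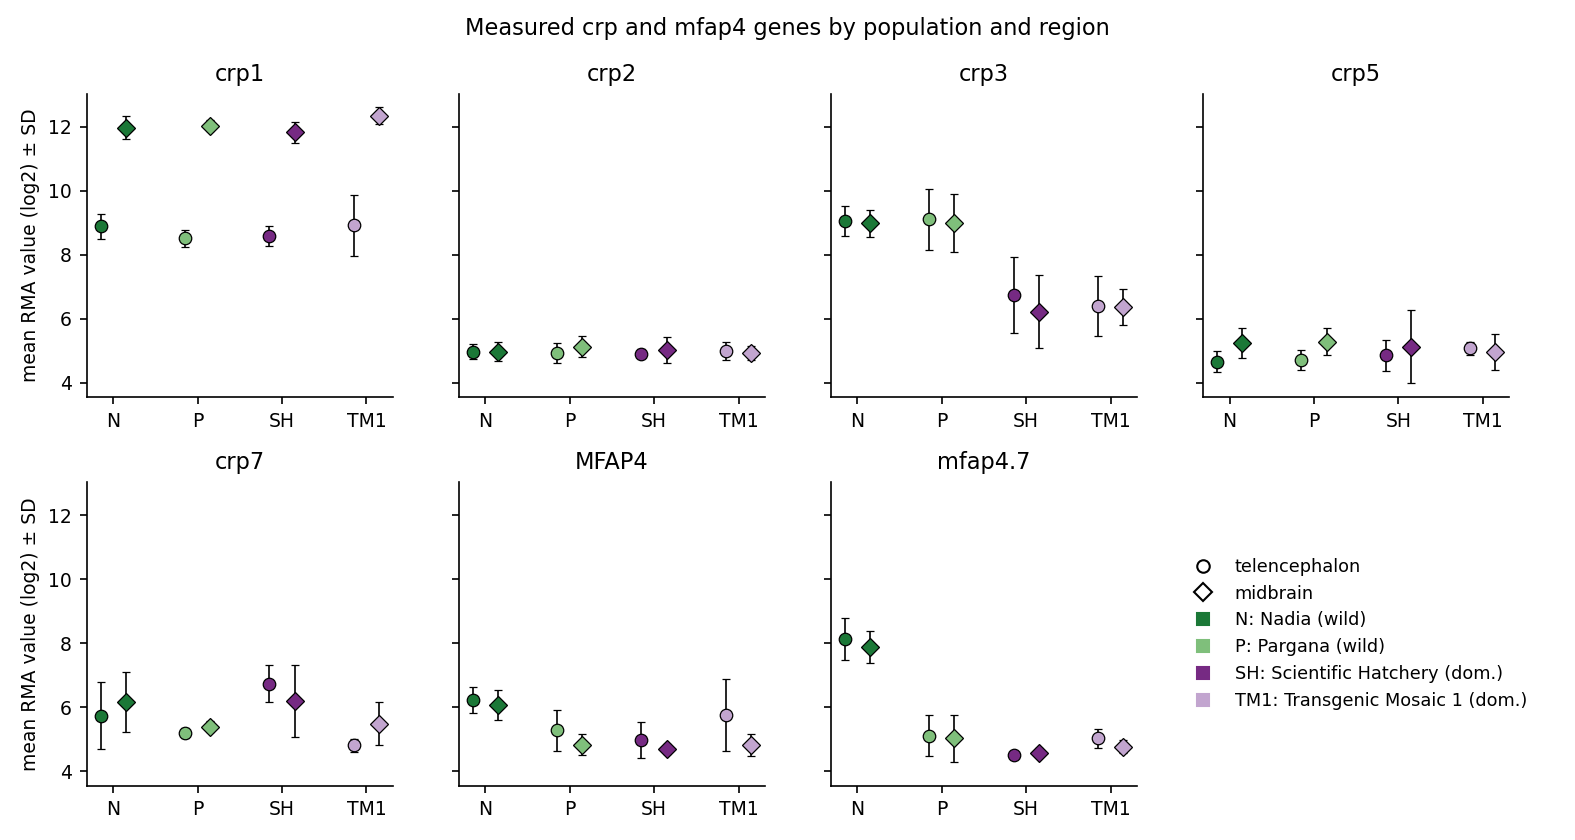
Mean log2 value with SD of each measured crp and mfap4 gene by population (N, Nadia; P, Pargana; SH, Scientific Hatchery; TM1, Transgenic Mosaic 1), with circles for telencephalon and diamonds for midbrain (n = 4, or 3 for Scientific Hatchery telencephalon). The crp3 means separate the wild from the domesticated populations, although single arrays overlap in telencephalon. The mfap4.7 means separate Nadia from the rest, and the crp1 means separate the regions (8.74 against 12.05).

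The measured genes that lie beside crp3 in the RefSeq annotation were also set against it. Its 10 nearest matched neighbours were crp2, crp1, METRN, ccdc78 and telo2 on one side and crp5, mybpc2b, crp7, si:ch211-234p6.5 and zgc:154125 on the other. Between wild and domesticated fish 0 of the 10 passed in either region, against 1.91% of all genes in telencephalon and 0.786% in midbrain (limma; 1 in telencephalon and 0 in midbrain had an unadjusted p under 0.05, as did 15.4% and 11.4% of all genes). The one in telencephalon was ccdc78, a gene of multiciliated cells, at -0.63 (SE 0.17, adjusted p = 0.055). It passed without any 1 of Nadia T106, Pargana T21, Transgenic Mosaic 1 T63 or Pargana M140 (adjusted p from 0.025 to 0.039). It also passed without a sex term (limma adjusted p = 0.041) and without Pargana (limma adjusted p = 0.042). zgc:154125 differed between the domesticated populations, being lower in Scientific Hatchery by -2.33 in telencephalon (SE 0.49, limma adjusted p = 0.012) and by -2.16 in midbrain (SE 0.46, limma adjusted p = 0.017). Without Nadia, zgc:154125 was higher in wild than in domesticated telencephalon by 1.01 (limma adjusted p = 0.045).

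Around mfap4.7 only 6 neighbours could be matched to a row: ggt1l2.2, si:ch211-15j1.1, NXNL1, si:ch211-114l13.9 and metrnlb on one side and wu:fk65c09 on the other. None of the 6 passed between wild and domesticated fish or between Nadia and Pargana in either region, shares of all genes being as above (limma; 1 of 6 had an unadjusted p under 0.05 for wild against domesticated in each region, and 0 of 6 for Nadia against Pargana). That gene was si:ch211-15j1.1, at 0.88 in telencephalon (SE 0.26, adjusted p = 0.087) and 0.89 in midbrain (SE 0.25, adjusted p = 0.10). It passed in telencephalon without Nadia T130, at 1.07 (adjusted p = 0.026), and in midbrain with array weights, at 0.88 (adjusted p = 0.042).

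Genes with the most similar pattern were ranked by Pearson's r over the 31 arrays after each region's mean was removed. The points share arrays, populations and, by pairs, a number, so r is a description. For crp3 the named genes with the highest r were AK4, a mitochondrial adenylate kinase (0.74), CNPY4, an endoplasmic reticulum protein that assists Toll-like receptors (0.74), and NDUFA12, a respiratory chain complex I subunit (0.72). Their separation was smaller: AK4 averaged 9.21 in Nadia and 9.40 in Pargana, against 8.86 in Scientific Hatchery and 8.75 in Transgenic Mosaic 1, in telencephalon. CNPY4 averaged 6.31 in Nadia and 6.67 in Pargana, against 6.07 in Scientific Hatchery and 5.67 in Transgenic Mosaic 1, in telencephalon, and NDUFA12 stayed between 14.6 and 14.8 in all groups.

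For mfap4.7 the named genes were znf541, a zinc finger gene (0.88), zc2hc1c, of a zinc finger family (0.87), and ELAPOR1, a gene of endosomes and lysosomes (0.83). zc2hc1c averaged 11.8 in Nadia telencephalon and 11.4 in Nadia midbrain, against 7.72 to 8.74 in the other groups. znf541 averaged 7.24 and 7.20 in Nadia, against 4.91 to 5.27 in the other groups. ELAPOR1 averaged 7.82 and 7.76 in Nadia, against 5.05 to 6.29 in the other groups, of which Pargana midbrain was the highest. crp3 and mfap4.7 correlated with each other at 0.53, at rank 165 among the genes ordered by likeness to crp3 and 280 among those ordered by likeness to mfap4.7. Population differences remain in this r, and both genes were chosen for higher values in wild fish. This r and these ranks thus cannot show that the genes vary together. With population means removed, r was -0.03 in telencephalon and 0.08 in midbrain.

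Other immune, plasma and blood genes were set against the contrast of wild and domesticated fish. Its p-values rest on the spread between arrays within a population, not between populations of the same origin. In all, 185 genes of 11 lists were measured, of which 5 passed in telencephalon and 0 in midbrain, against 1.91% and 0.786% of all genes (limma; 36 and 28 of the 185 had an unadjusted p under 0.05, as did 15.4% and 11.4% of all genes). The median difference over the 185 genes was -0.04 in telencephalon and 0.04 in midbrain, against 0.01 and -0.01 over all genes.

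Of 18 genes of interleukin 6, STAT3 and NF-kB signalling, the pathway that drives C-reactive protein in mammals, 0 passed in either region (1 in each had an unadjusted p under 0.05). In midbrain 1 passed with array weights, and 1 without Pargana.

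Of 22 acute-phase and complement genes 1 passed in telencephalon and 0 in midbrain (6 and 4 had an unadjusted p under 0.05), and their medians were -0.07 and 0.11. The 1 was c3b.1, a complement component C3 gene, which was higher in wild telencephalon by 1.40 (SE 0.27, limma adjusted p = 0.0062). It averaged 9.34 ± 0.61 in Nadia telencephalon (SD, n = 4), with Pargana at 6.91 ± 0.52, Scientific Hatchery at 6.97 ± 0.52 and Transgenic Mosaic 1 at 6.49 ± 0.31. Like mfap4.7 it was high in Nadia alone in this region, and without Nadia its difference was 0.17. In midbrain it was 0.86 (SE 0.27, adjusted p = 0.14). The list had 1 midbrain call with array weights, without Pargana and without Scientific Hatchery, and 2 telencephalon calls without Scientific Hatchery.

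Of 19 pattern recognition receptor genes 1 was higher and 1 lower in wild telencephalon, and 0 passed in midbrain (6 and 3 had an unadjusted p under 0.05). The list had 1 midbrain call with array weights, and 1 without Pargana. CD36, a scavenger receptor gene, was higher by 0.62 (SE 0.13, limma adjusted p = 0.011; 0.10 with telencephalon fitted alone), and tlr18, a Toll-like receptor gene of fish, was lower by -0.75 (SE 0.20, limma adjusted p = 0.047). tlr18 lost its call under median shifting, quantile normalization, trended moderation, array weights, telencephalon fitted alone and a random block on the array number (adjusted p from 0.052 to 0.089), and without any 1 of 19 of the 31 arrays (up to 0.12 without Scientific Hatchery T123). Of 17 fibrinogen-domain genes outside the mfap4 family and 13 microfibril and elastic fibre genes, 0 passed in either region (limma; in telencephalon 1 and 5 had an unadjusted p under 0.05, and in midbrain 0 and 1). The microfibril list had 1 telencephalon call under trended moderation, without a sex term, with the random block and without Pargana. The fibrinogen-domain list had 1 there without Scientific Hatchery.

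Of 23 microglia and macrophage markers 1 passed in telencephalon: MPEG1, a pore-forming protein gene of macrophages, was higher in wild fish by 1.17 (SE 0.28, limma adjusted p = 0.026), with 5.84 ± 0.71 in Nadia and 7.23 ± 0.50 in Pargana, against 5.47 ± 0.18 in Scientific Hatchery and 5.33 ± 0.26 in Transgenic Mosaic 1 (SD). Its call was lost without any 1 of Nadia T7, Nadia T130, Pargana T21, Scientific Hatchery T47 or Scientific Hatchery T123 (adjusted p from 0.054 to 0.066). In midbrain 0 passed in limma, although 8 had an unadjusted p under 0.05 and the list's median was 0.20. Without both arrays of Pargana 140, 1 passed in midbrain, 6 had an unadjusted p under 0.05 and the median was 0.16. With array weights 2 passed there, and 1 did so without a sex term, without Nadia and without Pargana. The list's mean level per array ran from 8.66 to 9.29 in wild and from 8.67 to 9.41 in domesticated telencephalon, and from 9.01 to 10.002 in wild and from 8.97 to 9.22 in domesticated midbrain, where 10.002 was Pargana M140.

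Of 13 neutrophil markers 1 passed in telencephalon and 0 in midbrain (3 in each had an unadjusted p under 0.05). This was NCF1, a subunit of the phagocyte NADPH oxidase, which was lower in wild telencephalon by -0.83 (SE 0.18, limma adjusted p = 0.012). In midbrain NCF1 was at -0.59 (adjusted p = 0.12), and without Pargana M140 it was lower in wild fish by -0.75 (adjusted p = 0.0035). The list's midbrain median was 0.09, and -0.05 without Pargana M140, when 2 of its genes passed. It also had 1 midbrain call with array weights, and 2 without Pargana. The calls of c3b.1, CD36, tlr18, MPEG1 and NCF1 all ended without Transgenic Mosaic 1 (adjusted p from 0.21 to 0.40), those of c3b.1, tlr18 and NCF1 also without Nadia, those of CD36 and MPEG1 also without Pargana, and that of MPEG1 also without Scientific Hatchery (0.056). Genes of liver and plasma proteins (23), lymphocytes (12), red blood cells (8) and of endothelium, meninges and fibroblasts (22) had 0 calls in either region (limma; 2, 4, 1 and 2 had an unadjusted p under 0.05 in telencephalon and 3, 1, 0 and 4 in midbrain). Without Pargana the liver, lymphocyte and red blood cell lists each had 1 call in telencephalon, and the endothelial list had 2. Without Scientific Hatchery the lymphocyte and endothelial lists each had 1 there, as the lymphocyte list did without Nadia. In midbrain the liver and red blood cell lists each had 1 call without Pargana. The endothelial list had 1 there with array weights, with midbrain fitted alone, without Nadia and without Scientific Hatchery. For the fits without Pargana or without Nadia the share of all genes called is not given here. A list's calls in these fits cannot be read as particular to the list. The liver and plasma list, named for the tissue that makes C-reactive protein in mammals, had mean levels of 5.73 to 6.35 on wild and 5.87 to 6.26 on domesticated telencephalon arrays, and of 5.74 to 6.24 on wild and 5.86 to 6.13 on domesticated midbrain arrays.

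**Figure D4:**
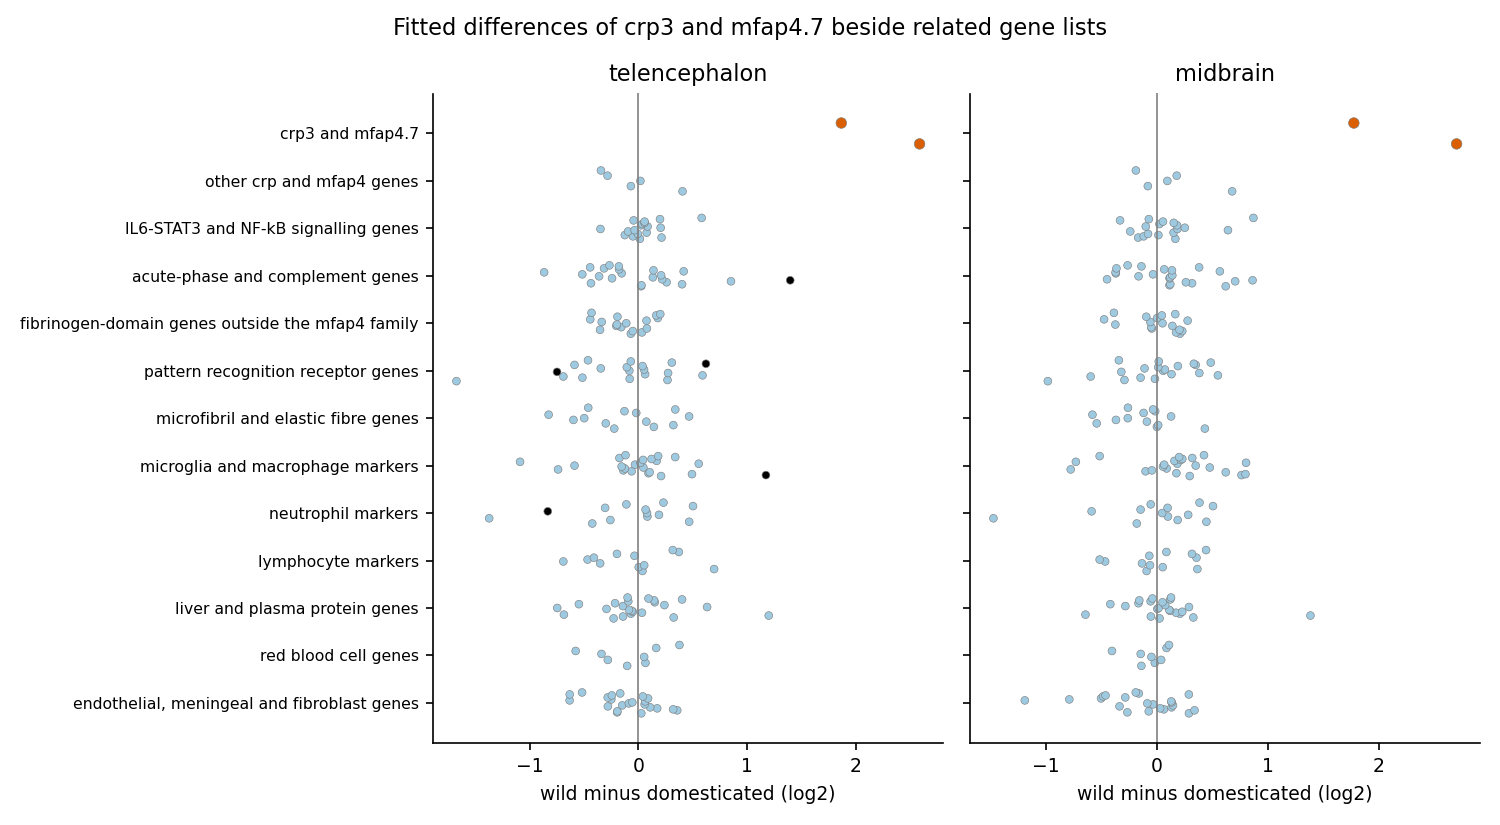
Fitted difference between wild and domesticated fish (log2, horizontal axis) in telencephalon (left) and midbrain (right) for crp3 and mfap4.7 (orange), their relatives and 11 gene lists (rows). Each point is a gene, black where it passed at an adjusted p under 0.05 and blue where it did not; the 2 orange genes, chosen for this difference, are plotted without a test, and black points number 5 in telencephalon and 0 in midbrain.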

How the data were processed

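Total RNA of individual fish was converted to Cy3-labelled cDNA and hybridized to 1-colour NimbleGen arrays, per the labels' protocols. The authors deposited log2 values, made with RMA on the Zv9 build per the submitters' processing notes. The scale was inferred from their span of 3.50 to 15.5. No rescaling was applied, and 1 of 15649 rows, which names no gene, was left out. Symbols matched 13251 genes.

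limma 3.58.1 in R 4.3.3 (statmod 1.5.0) fitted 8 means, 1 per population in each region, plus a male minus female term per region, with 21 residual degrees of freedom (prior 2.92). P-values were Benjamini-Hochberg adjusted over 15648 genes at a threshold of 0.05. They rest on the spread between arrays of the same population and region, after the sex term. For wild against domesticated fish they carry no variation between populations of the same origin. They hold for these populations and not for wild or domesticated fish in general. The fit was tried on simulated data with independent noise on each array and differences added in wild telencephalon only. That trial did not cover the other comparisons or the block on array numbers. Alternatives changed the scaling, the filter on dim genes, the moderation, array weights, the sex term, the samples fitted or the block on array numbers, or left out arrays and populations. Leaving out both arrays of a number, and turning the sex label of Pargana 21, were added after seeing the data.

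Array numbers were taken as pairs because deviations from group means, over all genes, correlated in each of 15 pairs (r from 0.12 to 0.54). The weakest pairs were Nadia 106 (r = 0.12) and Nadia 98 (r = 0.13). crp3, mfap4.7 and all lists were chosen with earlier results of these data known. Genes named are these members, the other crp and mfap4 genes, the 5 nearest matched genes on each side, the 3 most similar named genes of each member, and of each list those that passed or some of those with the smallest p, except 1 gene that is not reported here. Neighbours come from the RefSeq annotation of another build (GRCz12tu), so no coordinates are given. No sequences were used here.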

Additional observations from a re-analysis of the deposited data

Results flagged for a closer look

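In 49 groups of 4 arrays, for the 7 crp and mfap4 genes, 2 held an array set far from the rest by Dixon's gap test, which chance gives in about 1 group in 20. Both were in crp2. In telencephalon Pargana 13 was at 5.40, against 4.75 to 4.85 on the other Pargana arrays. In midbrain Scientific Hatchery 47 was at 5.64, against 4.77 to 4.91 on the others of its group. Both values are low in the measured range.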

How the results depend on the processing

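The results of crp3 between Nadia and Pargana, and of crp3 and mfap4.7 between the domesticated populations, the sexes and the regions, kept their side of the threshold under every alternative that gave a value. mfap4.7 has no value without the dimmest 25% of genes, since that filter removes it. The mfap4.7 difference between wild and domesticated fish was 0.33 in telencephalon and 0.31 in midbrain without Nadia, and 3.40 and 3.23 without Pargana. Without Nadia the difference of ELAPOR1 turned to -0.47 in telencephalon, and that of zc2hc1c to -0.29 in telencephalon and -0.24 in midbrain. The random block on array numbers (consensus correlation 0.23) changed the calls of MFAP4 and tlr18 given above and no other among the genes named. The fixed block could be fitted only for the comparisons between regions and was run for the crp and mfap4 genes and all genes, where it changed the calls of MFAP4 and crp7. Neither moved a count of all genes over 1.5 times. Array weights raised the genes called between Scientific Hatchery and Transgenic Mosaic 1 in midbrain to 672, against 147, those between wild and domesticated midbrain to 431 and those between the sexes in midbrain to 2, against 1. With each region fitted alone the telencephalon counts were 124 for wild against domesticated (299 with both regions), 96 for Nadia against Pargana (325), 61 for Scientific Hatchery against Transgenic Mosaic 1 (254) and 1 for sex (5), and 2 for sex in midbrain. Between wild and domesticated fish 548 genes passed in telencephalon and 237 in midbrain without Scientific Hatchery, and 116 and 74 without Transgenic Mosaic 1. The sex count in telencephalon was 8 with trended, robust moderation and 28 with Pargana 21 counted as male. The cause of these moves was not tested.

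Leaving out 1 array, or both arrays of a number, changed none of these results of crp3 and mfap4.7. The counts ran from 97 (without Nadia M98) to 299 for Nadia against Pargana in midbrain, from 63 (without both arrays of Transgenic Mosaic 1 number 12) to 171 for Scientific Hatchery against Transgenic Mosaic 1 in midbrain and from 113 (without Scientific Hatchery T57) to 349 in telencephalon, from 176 (without Nadia T7) to 351 for wild against domesticated in telencephalon, and from 1 to 19 for sex in telencephalon and 0 to 2 in midbrain. Probes near the bottom of the measured range, where most mfap4.7 values outside Nadia lie, limit how small a difference can be seen.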
